A study of Mus musculus with 6 samples.

Results

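The endocannabinoid enzymes described here are the genes Napepld, Abhd4, Faah, Naaa, Dagla, Daglb, Mgll, Abhd6 and Abhd12, together with Trpv2, a cannabinoid-sensitive ion channel that is not an enzyme. They were chosen by symbol from knowledge of the pathway, with earlier results of these data known. All 10 were among the 16588 genes of the deposited count table. RNA was sequenced from group 2 innate lymphoid cells (ILC2s) sorted from mouse lung, in 3 libraries of mice labelled Cnr2 KO and 3 of mice labelled C57BL/6 (wild type, WT). All mice had received 0.5 µg of recombinant IL-33 through the nose on each of 3 days, the cells were taken on day 4, and the sorted ILC2s were then kept in culture for 18 h. Each library started from 10 pg of RNA, amplified with a kit for low inputs. The sources used here do not give the way Cnr2 was disrupted, the strain background of the mutant mice or the age of the animals. Nor do they say that replicates came from separate animals, so the p-values speak of the spread between libraries, which may be technical.

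Endocannabinoids are signalling lipids that cells make on demand from membrane phospholipids and that act on the cannabinoid receptors CB1 and CB2, the second of which is encoded by Cnr2 and is found mainly on immune cells. The best known are anandamide, one of the N-acylethanolamines, and 2-arachidonoylglycerol (2-AG). Each has its own enzymes of synthesis and breakdown, and breakdown of either can release arachidonic acid, the precursor of prostaglandins and leukotrienes.

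The libraries labelled Cnr2 KO held more, not less, Cnr2 RNA than the WT libraries. Cnr2 had 147, 139 and 135 counts in libraries labelled Cnr2 KO, against 76, 503 and 60 counts in WT, which is 7.49 ± 0.0627 CPM with the Cnr2 KO label and 3.69 ± 0.449 CPM in WT (SD, n = 3 each; CPM is a TMM-scaled count per 1e6 counts). This is against the direction of the label, and counts per gene do not show which exons were read, so the groups are called here as they are labelled, and every direction below is that of the label. Total counts were 17867541 to 19399819 in libraries labelled Cnr2 KO and 19056174 to 129617689 in WT, where replicate 2 was the deepest, at 6.88 times the mean depth of the other 5. All 12 ILC2 markers examined were counted, of which 9 were called higher and 2 lower in libraries labelled Cnr2 KO, with a median log2 fold change of 0.75. Gata3, the transcription factor that defines these cells, was 3.72-fold higher and Nmur1, the neuromedin U receptor, 9.38-fold higher, while the IL-2 receptor gene Il2ra was 2.03-fold lower and Il5 did not pass. Their summed level, made up mainly of Il5 and Il2ra, overlapped between the groups, at 12210 to 13320 CPM with the Cnr2 KO label and 13060 to 13600 CPM in WT. A total of 8053 of 12150 genes tested, 66.3%, differed between the groups (quasi-likelihood test of edgeR, p under 0.05 after Benjamini-Hochberg adjustment), so a difference in any 1 gene is common here, and counts among the 10 genes below are to be read against that share.

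Of the 10 genes, 4 were higher and 2 lower in libraries labelled Cnr2 KO, and 4 did not pass the test. Faah, Naaa, Napepld and Trpv2 were higher, where 33.1% of all tested genes were, and Abhd12 and Daglb were lower, where 33.2% of all tested genes were. At least 2-fold differences were found in Faah and Naaa, both higher (8.89% of all tested genes were), and in 0 of the 10 genes in the lower direction (7.47% of all tested genes). The values of the groups did not overlap in 5 of the 10 genes, a share below the 68.9% of all tested genes. In bulk RNA such as this, a change in the RNA per cell cannot be told apart from a change in the share of cells that express a gene.

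**Figure D1:**
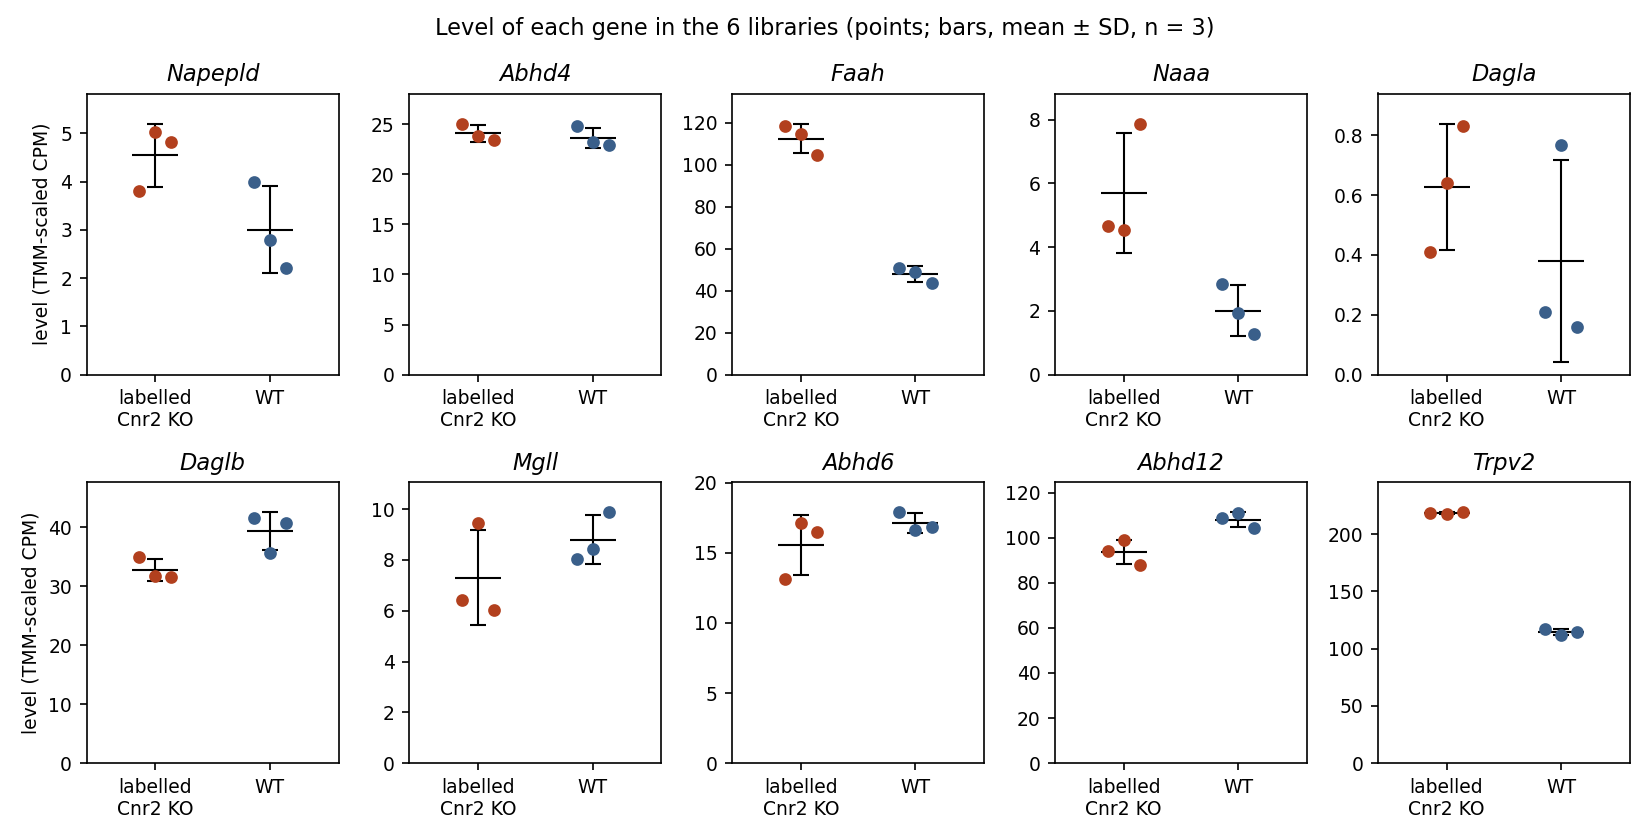
Level of each gene in each library, in TMM-scaled CPM on axes that start at 0. Points are libraries, with those labelled Cnr2 KO on the left and WT on the right, and bars are the mean ± SD of 3 libraries. The groups stand apart in Faah, Naaa, Trpv2, Abhd12 and Daglb and overlap in the other 5 genes.

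Of the 4 N-acylethanolamine genes, 3 were higher in libraries labelled Cnr2 KO (3 also by DESeq2 and by limma-voom), with a median log2 fold change of 0.92 over the 4. Of all genes tested, 33.1% were called higher by edgeR, 25.1% by DESeq2 and 33.8% by limma-voom. Faah (ENSMUSG00000034171.13, chromosome 4, 115967145 to 116017926, GRCm38) encodes fatty acid amide hydrolase, the membrane-bound serine hydrolase that splits anandamide into arachidonic acid and ethanolamine. Its level was 118.2, 114.6 and 104.5 CPM in libraries labelled Cnr2 KO, against 50.8, 49.1 and 43.6 CPM in WT. All 3 libraries labelled Cnr2 KO lay above all 3 WT libraries, by a wide margin compared with the spread within either group. The difference was 2.34-fold (log2 fold change 1.23, SE 0.07, edgeR adjusted p = 6.67e-12), with a 95% interval of 2.13 to 2.58-fold. In all 16 alternative settings its log2 fold change stayed between 1.13 and 1.28.

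Naaa (ENSMUSG00000029413.14, chromosome 5, 92257659 to 92278170) encodes the acid amidase of lysosomes, a cysteine hydrolase that prefers palmitoylethanolamide, a relative of anandamide. It had 91, 85 and 142 counts in libraries labelled Cnr2 KO, against 54, 249 and 24 counts in WT, or 4.67, 4.54 and 7.87 CPM with the Cnr2 KO label and 2.84, 1.93 and 1.27 CPM in WT. The groups did not overlap, but Naaa was a low-count gene whose values varied within each group, with replicate 3 the highest of those labelled Cnr2 KO. Its 2.85-fold difference (log2 fold change 1.51, SE 0.27, edgeR adjusted p = 7.25e-05) therefore carries a wide interval, 1.92 to 4.22-fold.

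Napepld (ENSMUSG00000044968.16, chromosome 5, 21662901 to 21701396) encodes the phospholipase D that releases N-acylethanolamines from their membrane precursors. It had 74, 94 and 87 counts in libraries labelled Cnr2 KO, against 76, 361 and 42 counts in WT, or 3.80, 5.02 and 4.82 CPM with the Cnr2 KO label and 3.99, 2.79 and 2.22 CPM in WT. The groups overlapped, since WT replicate 1 lay above replicate 1 of those labelled Cnr2 KO. Napepld passed the test as 1.53-fold higher (log2 fold change 0.61, SE 0.23, edgeR adjusted p = 0.0228). The call was lost without replicate 2 or replicate 3 of those labelled Cnr2 KO (edgeR adjusted p = 0.0872 and 0.0651), without WT replicate 2 or 3 (0.0892 and 0.0860), and in DESeq2 with a replicate block (adjusted p = 0.105).

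Abhd4 (ENSMUSG00000040997.13, chromosome 14, 54254188 to 54270637), a lipase that in mouse acts on the same precursors by a route that does not need NAPE-PLD, stood at 25.1, 23.9 and 23.4 CPM in libraries labelled Cnr2 KO, against 24.8, 23.2 and 22.9 CPM in WT. The values interleave, and the difference was 1.02-fold (edgeR adjusted p = 0.746) with an interval of 0.908 to 1.15-fold, which leaves room for only a small difference in either direction.

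The RefSeq promoters of the 4 genes that were higher are shown because these genes share a direction, from 250 bases before to 50 bases after the transcription start nearest the annotated gene start (build GRCm38.p6). Of the 10 genes, 8 had such an entry. Each is read 5′ to 3′ on the strand of its gene, minus for Napepld, Faah and Naaa and plus for Trpv2, and capitals mark every match to the motifs listed after them. Faah lies at chr4:116017875-116018174, Naaa at chr5:92278132-92278431, Napepld at chr5:21701573-21701872 and Trpv2 at chr11:62574236-62574535.
Faah: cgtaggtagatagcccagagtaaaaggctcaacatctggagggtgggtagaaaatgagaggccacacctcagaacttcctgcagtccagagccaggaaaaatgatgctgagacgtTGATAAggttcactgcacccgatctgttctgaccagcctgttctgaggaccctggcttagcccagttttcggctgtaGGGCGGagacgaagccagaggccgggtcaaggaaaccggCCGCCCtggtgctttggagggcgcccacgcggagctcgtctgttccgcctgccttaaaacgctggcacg
Naaa: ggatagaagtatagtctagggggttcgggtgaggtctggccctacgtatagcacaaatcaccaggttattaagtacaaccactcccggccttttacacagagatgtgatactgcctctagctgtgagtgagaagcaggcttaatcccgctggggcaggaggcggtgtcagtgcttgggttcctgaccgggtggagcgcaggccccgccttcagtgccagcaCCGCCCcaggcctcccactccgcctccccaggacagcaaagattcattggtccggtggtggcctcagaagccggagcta
Napepld: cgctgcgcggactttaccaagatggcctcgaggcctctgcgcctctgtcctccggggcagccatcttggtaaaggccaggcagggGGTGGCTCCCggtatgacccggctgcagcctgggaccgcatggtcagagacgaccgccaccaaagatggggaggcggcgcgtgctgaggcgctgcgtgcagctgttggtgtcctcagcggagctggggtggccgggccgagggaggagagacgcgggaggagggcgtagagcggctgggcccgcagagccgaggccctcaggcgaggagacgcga
Trpv2: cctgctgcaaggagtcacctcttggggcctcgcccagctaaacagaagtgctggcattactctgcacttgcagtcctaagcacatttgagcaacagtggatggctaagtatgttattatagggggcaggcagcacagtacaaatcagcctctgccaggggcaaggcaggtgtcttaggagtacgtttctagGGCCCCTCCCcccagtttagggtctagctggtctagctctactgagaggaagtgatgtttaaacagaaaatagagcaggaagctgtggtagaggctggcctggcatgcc
The Napepld promoter held 28 CpG dinucleotides and that of Faah 16, against 12 for Naaa and 2 for Trpv2, with a median of 7 over all 32851 RefSeq promoters of the same length. Motifs were searched on both strands. The GC box GGGCGG, found at 35.7% of all promoters, occurred at Faah and Naaa, with the pair at Faah starting 58 and 19 bases before the transcription start. A GATA motif, AGATAA or TGATAA, present at 18.6% of all promoters, occurred at Faah alone of these 4. An NF-kB-like motif, GGGA and CC with any 4 bases between them, present at 20.7%, occurred at Napepld and Trpv2. Among the 8 genes with an entry, 5 held the GC box, also Abhd4, Mgll and Abhd6, which did not pass the test. The NF-kB-like motif was at 3 of the 8, also at Abhd6, and the GATA motif at 1 of the 8. No match was found in these 4 windows to the nuclear receptor motif AGGTCA (16.3% of all promoters), AP-1 TGANTCA (7.81%), CRE TGACGTCA (1.79%), the E-box CACGTG (7.15%), ETS CCGGAAG (8.86%), the interferon response element, GAAA repeated after any 2 bases (3.44%), or TATAAA (13.6%). No motif searched was thus held by all 4 promoters, and a match is a stretch of letters, not a measured binding site.

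Of the 5 genes of 2-AG, the 2 that passed the test were lower, and the median log2 fold change was -0.21. By the same test 33.2% of all tested genes were lower and 33.1% higher. None of the 5 was called higher by edgeR, also at an unadjusted p under 0.05 (0 of 5), nor by DESeq2 (0 of 5, where 25.1% of all genes were called higher) or limma-voom (0 of 5, against 33.8%). Daglb (ENSMUSG00000039206.13, chromosome 5, 143464584 to 143505942) encodes diacylglycerol lipase beta, which makes 2-AG from diacylglycerol and is the form known from macrophages and microglia. Its level was 34.9, 31.7 and 31.6 CPM in libraries labelled Cnr2 KO, against 41.6, 35.6 and 40.8 CPM in WT. The groups stood apart by less than 1 CPM, between replicate 1 of those labelled Cnr2 KO and WT replicate 2, and the difference was 1.19-fold (log2 fold change -0.25, SE 0.08, edgeR adjusted p = 0.0106). The exons of Daglb overlap those of Rac1 on the other strand, and Rac1, a GTPase gene, was itself 1.13-fold lower at 683.3 ± 18.0 CPM in libraries labelled Cnr2 KO and 771.6 ± 37.0 CPM in WT (SD, n = 3 each; edgeR adjusted p = 0.0023). No source used here gives the strand setting of the counting, and reads of Daglb and Rac1 where they overlap cannot be told apart.

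Dagla (ENSMUSG00000035735.10, chromosome 19, 10245265 to 10304877), the diacylglycerol lipase known from neurons, was close to the limit of what was counted. It had 8, 12 and 15 counts in libraries labelled Cnr2 KO, against 4, 99 and 3 counts in WT, or 0.411, 0.641 and 0.832 CPM with the Cnr2 KO label and 0.210, 0.766 and 0.159 CPM in WT. The deepest library, WT replicate 2, held a level like those labelled Cnr2 KO, while the other WT libraries were lower. No difference was detectable at this depth (log2 fold change 0.33, SE 0.52, edgeR adjusted p = 0.590, interval 0.589 to 2.69-fold). Without WT replicate 2 it passed as higher, with a log2 fold change of 1.72 (edgeR adjusted p = 0.0463).

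Abhd12 (ENSMUSG00000032046.15, chromosome 2, 150832493 to 150904741) encodes a membrane hydrolase that can cleave 2-AG and is best known for breaking down lysophosphatidylserine. It was at 94.0, 98.9 and 88.1 CPM in libraries labelled Cnr2 KO, against 108.6, 111.1 and 104.4 CPM in WT. The groups did not overlap, and the difference was small and precise, 1.15-fold lower with an interval of 0.798 to 0.940 of the WT level (log2 fold change -0.21, SE 0.06, edgeR adjusted p = 0.00331).

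Mgll (ENSMUSG00000033174.17, chromosome 6, 88724412 to 88828360) encodes monoacylglycerol lipase, the main 2-AG hydrolase of the brain. It had 6.42, 9.45 and 6.04 CPM in libraries labelled Cnr2 KO, against 8.04, 8.45 and 9.88 CPM in WT. Replicate 2 of those labelled Cnr2 KO lay within the WT range and the other 2 lay below it, and the test did not pass (log2 fold change -0.26, SE 0.16, edgeR adjusted p = 0.172, interval 0.659 to 1.06-fold). Without that replicate Mgll passed as lower, with a log2 fold change of -0.49 (edgeR adjusted p = 0.0141). Abhd6 (ENSMUSG00000025277.14, chromosome 14, 8002902 to 8056763), a plasma membrane hydrolase of 2-AG, had 13.1, 17.1 and 16.5 CPM in libraries labelled Cnr2 KO, against 17.9, 16.6 and 16.9 CPM in WT. Its groups overlapped and it did not pass either (log2 fold change -0.13, SE 0.11, edgeR adjusted p = 0.289, interval 0.781 to 1.07-fold).

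Trpv2 (ENSMUSG00000018507.16, chromosome 11, 62574486 to 62600515) encodes a cation channel that the plant cannabinoid cannabidiol opens, as shown for the rat channel. It was at 218.3, 217.4 and 219.3 CPM in libraries labelled Cnr2 KO, against 117.6, 111.8 and 114.4 CPM in WT. Its libraries were nearly alike within each group and far apart between groups, a 1.91-fold difference with an interval of 1.78 to 2.04-fold (log2 fold change 0.93, SE 0.05, edgeR adjusted p = 2.06e-12). Of the other 5 TRPV channels, Trpv1, Trpv4 and Trpv5 had rows in the table, at no more than 1.22 CPM in any library, and none of the 3 passed the filter on low counts. Trpv5, an epithelial calcium channel, had 19, 8 and 22 counts in libraries labelled Cnr2 KO, against 2, 8 and 2 counts in WT, or 0.976, 0.427 and 1.22 CPM with the Cnr2 KO label and 0.105, 0.0619 and 0.106 CPM in WT. Its levels did not overlap. Trpv5 was called higher by edgeR with no filter (adjusted p = 6.15e-04) and by DESeq2 (adjusted p = 4.98e-05, or 0.00172 with a replicate block). The other settings that tested it each left out a library. There the filter admitted it through the libraries labelled Cnr2 KO in which it was high, so its calls in them are no separate support.

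**Figure D2:**
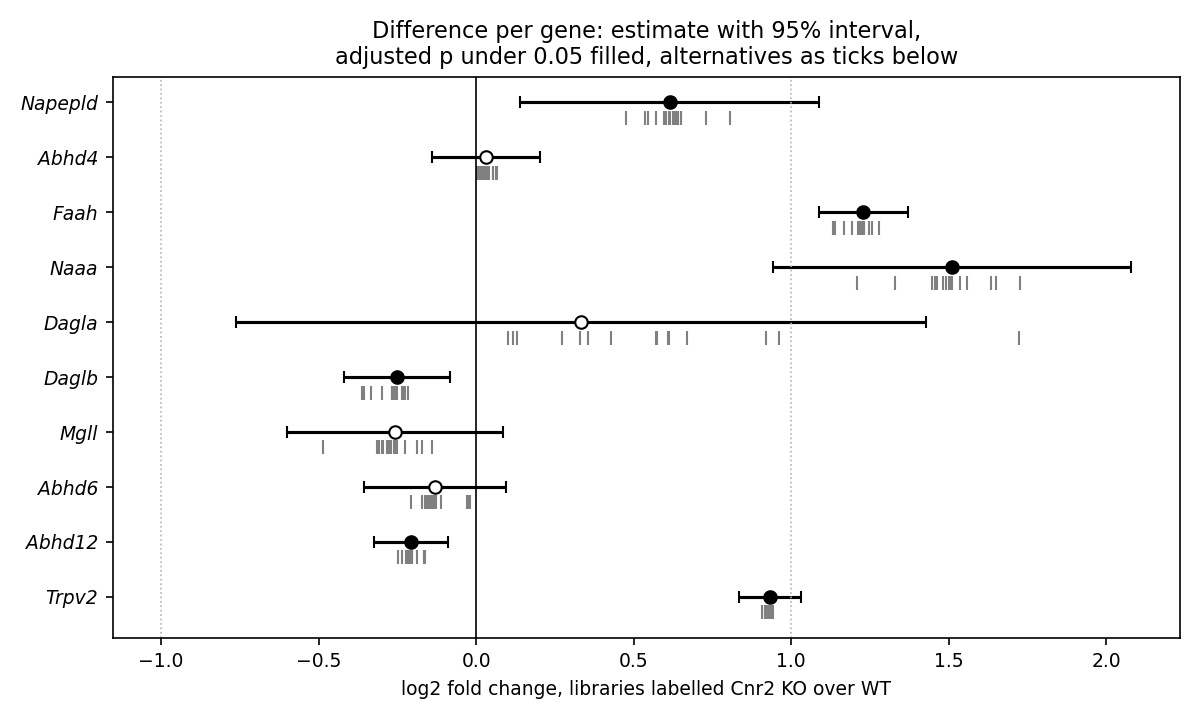
Log2 fold change of each gene, libraries labelled Cnr2 KO over WT, with its 95% interval. Filled circles passed at adjusted p under 0.05 in edgeR, grey ticks under each circle are the values under the alternative settings, and dotted lines mark 2-fold. Faah and Naaa lie past 2-fold, Daglb and Abhd12 lie just below 0, and Dagla has the widest interval and the widest spread of ticks.

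Levels of different genes were compared as CPM per kilobase (kb) of annotated exons. In the libraries labelled Cnr2 KO the order was led by Trpv2 (48.7 ± 0.215 CPM per kb), Abhd12 (33.2 ± 1.92) and Faah (14.35 ± 0.904), followed by Abhd4 (7.35 ± 0.261) and Abhd6 (6.59 ± 0.905), whose library ranges overlapped, and by Daglb (3.42 ± 0.198). Naaa (1.53 ± 0.507), Mgll (1.44 ± 0.368) and Napepld (1.15 ± 0.166) came next, each overlapping its neighbour, and Dagla was last at 0.109 ± 0.0367 (SD, n = 3 each). In WT Abhd12 led (38.3 ± 1.19 CPM per kb), ahead of Trpv2 (25.6 ± 0.651), so these changed places between the groups. They were followed in WT by Abhd6 (7.24 ± 0.291) and Abhd4 (7.21 ± 0.307), which overlapped, then by Faah (6.11 ± 0.479), Daglb (4.11 ± 0.340) and Mgll (1.73 ± 0.191). Napepld (0.759 ± 0.229) and Naaa (0.540 ± 0.212) overlapped at the low end of the WT order, above Dagla (0.0658 ± 0.0587).

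The place of Faah depends on the length used, since its annotated exons span 7.83 kb and its longest protein-coding transcript 3.83 kb. With the length of the longest protein-coding transcript, a choice made after seeing the data, Faah ranked 3 in both groups, at 29.4 ± 1.85 CPM per kb in libraries labelled Cnr2 KO and 12.5 ± 0.981 CPM per kb in WT, and Abhd6 ranked behind Daglb in both, with overlapping ranges. Within each enzyme step 1 gene held most of the RNA per length in both groups. Of the 3 hydrolases of 2-AG, Abhd12 made up 79.3 to 83.0% of the summed level per kb in libraries labelled Cnr2 KO and 80.3 to 81.9% in WT, and Mgll 3.02 to 4.22% in libraries labelled Cnr2 KO and 3.32 to 4.22% in WT. Daglb made up 95.8 to 98.1% of the summed diacylglycerol lipases in libraries labelled Cnr2 KO and 96.5 to 99.4% in WT, and Faah 86.3 to 92.3% of the summed amidases Faah and Naaa in libraries labelled Cnr2 KO and 89.5 to 94.2% in WT. These shares overlapped between the groups. The ratio of Faah to Abhd12 per kb did not overlap, at 0.418 to 0.453 in libraries labelled Cnr2 KO and 0.151 to 0.169 in WT, nor did that of Faah to Napepld, at 10.9 to 15.7 in libraries labelled Cnr2 KO and 6.43 to 9.93 in WT. With the longest protein-coding transcript as length, Faah over Abhd12 was 0.605 to 0.656 with the Cnr2 KO label and 0.218 to 0.245 in WT. Faah over Napepld was then 22.4 to 32.1 with the Cnr2 KO label and 13.2 to 20.3 in WT. A change of length multiplies a ratio by the same factor in every library, so it cannot alter whether the groups overlap. Other ratios per kb of annotated exons overlapped between the groups. Abhd12 over Daglb was 9.125 to 10.57 with the Cnr2 KO label and 8.674 to 10.58 in WT. Daglb over Mgll was 1.781 to 2.887 with the Cnr2 KO label and 2.191 to 2.744 in WT. How often ratios of any genes stand apart was not worked out. RNA shares say nothing of enzyme activity.

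**Figure D3:**
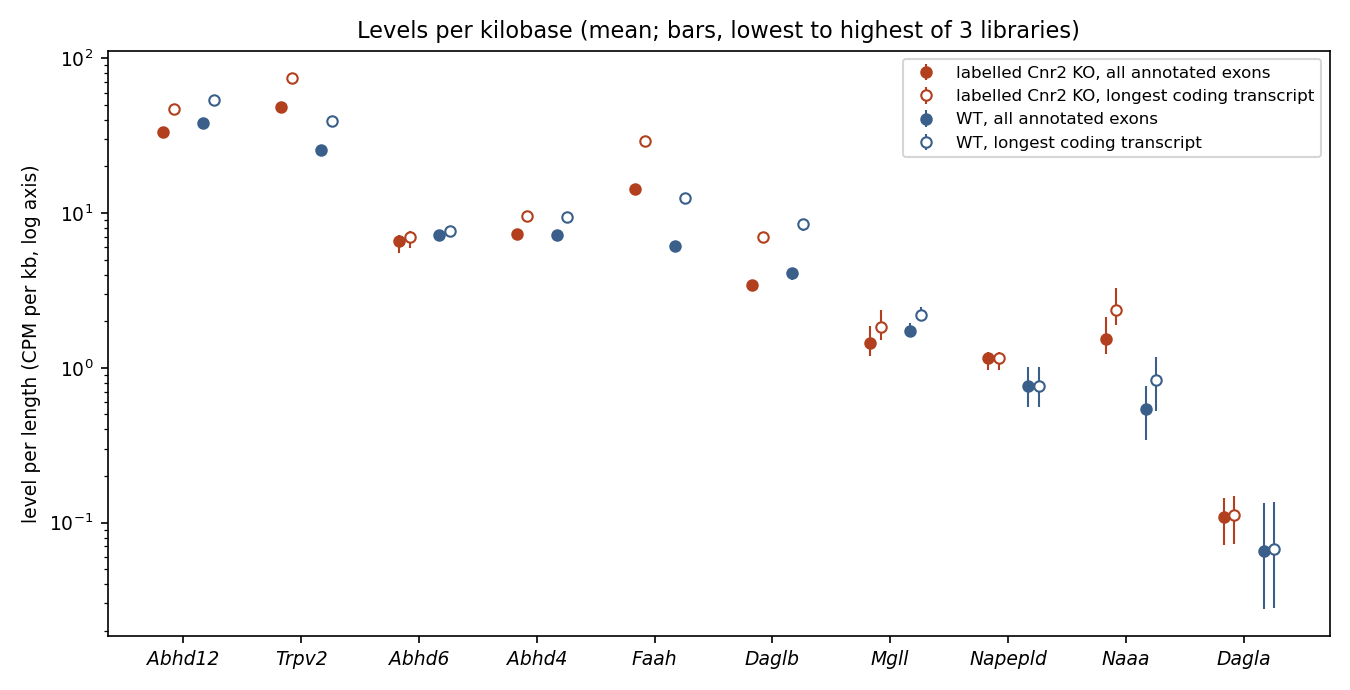
Level per kilobase of each gene, in CPM per kb on a log axis, ordered by the WT level. Points are means and bars run from the lowest to the highest of 3 libraries, libraries labelled Cnr2 KO left and WT right, with filled points for all annotated exons and open points for the longest protein-coding transcript. Levels span from Dagla, near 0.1 CPM per kb, to Abhd12 and Trpv2, above 25 CPM per kb in both groups.

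Genes whose pattern over the 6 libraries was most like that of Faah or Naaa were sought by the root mean square difference of centred log2 CPM. Among 3672 genes of similar level, the closest to Faah were Dip2a (a difference of 0.0302), Endod1 (0.0441) and Bcar3 (0.0451). Dip2a stood at 100.7 ± 5.93 CPM in libraries labelled Cnr2 KO and 41.9 ± 2.54 CPM in WT (SD, n = 3 each). Among 1344 genes, the closest to Naaa were Fmn1 (0.198), Pld1 (0.206) and Cerkl (0.271), all farther from it than the Faah neighbours were from Faah. But Naaa had 24 to 249 counts per library and Faah 826 to 6340. Counting noise is larger at low counts, so the larger differences do not set the pattern of Naaa apart.

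The rest of the pathway was described with 10 lists of related genes, 93 genes in all outside the 10 above, of which 74 had a row in the table and 59 were tested. Of these, 30 were higher and 14 lower, where 33.1% and 33.2% of all tested genes were, with a median log2 fold change of 0.23, against a median of 0.18 for the 10 genes above and 0.01 for all genes tested. The lists are small and were also chosen with earlier results of these data known. The counts describe them, with no test that sets a list apart from other genes. Among genes that supply or handle N-acylethanolamine precursors, 2 of 7 tested were higher and 3 lower. Plaat3, a phospholipase and acyltransferase, was 2.77-fold higher at 42.2 ± 1.14 CPM in libraries labelled Cnr2 KO and 15.5 ± 1.63 CPM in WT (edgeR adjusted p = 2.94e-11). Gde1, a phosphodiesterase that acts after Abhd4, was 1.59-fold lower at 84.6 ± 5.55 CPM in libraries labelled Cnr2 KO and 134.7 ± 4.20 CPM in WT (edgeR adjusted p = 4.49e-09).

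On the diacylglycerol side, 5 of 8 phospholipase C genes tested were higher and 2 lower, beside 33.1% higher and 33.2% lower of all tested genes. Of 7 diacylglycerol kinase genes, 4 were higher and 0 lower by edgeR. None was lower at an unadjusted p under 0.05 or by limma-voom either. But 1 was called lower by DESeq2, which tested 8, with or without a replicate block. Also 1 was lower by edgeR with no filter, and 1 with the GC and length correction. Plcb4 was at 52.3 ± 2.28 CPM in libraries labelled Cnr2 KO and 22.1 ± 0.0816 CPM in WT (2.37-fold, edgeR adjusted p = 1.68e-11), and Plcg1 was 1.70-fold higher (edgeR adjusted p = 1.15e-08). Both cut inositol phospholipids to give diacylglycerol. Dgka, which turns diacylglycerol into phosphatidic acid, was at 111.5 ± 8.79 CPM in libraries labelled Cnr2 KO and 41.3 ± 2.53 CPM in WT (2.71-fold, edgeR adjusted p = 8.72e-13), and Dgkd was 1.54-fold higher. Of 6 glycerolipid lipases tested, beside the same 33.1% and 33.2% of all genes, 4 were higher and 0 lower by edgeR (also 0 at an unadjusted p under 0.05, by limma-voom and by DESeq2), with Lipe, hormone-sensitive lipase, 2.15-fold and Lipa, lysosomal acid lipase, 1.71-fold higher. Of 14 other ABHD family genes 7 were higher and 3 lower, with Abhd8 1.83-fold higher and Abhd14a 2.05-fold lower.

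Of 10 genes of arachidonate release and reuse 6 were higher and 2 lower, beside 33.1% higher and 33.2% lower of all genes tested, with 3.11-fold more Lpcat2 and 1.68-fold more Mboat1, acyltransferases that attach fatty acids to lysophospholipids. Alox5, the 5-lipoxygenase of leukotriene synthesis, was at 565.2 ± 47.9 CPM in libraries labelled Cnr2 KO and 83.2 ± 3.12 CPM in WT, 6.78-fold higher (edgeR adjusted p = 2.25e-17), and the other tested gene of the oxidation list, Ptgs1, did not pass. DESeq2, which tested 5 genes of that list, called 1 higher and 1 lower. Of 5 receptor genes tested, Cnr2 was higher, 3 were lower and Ppard did not pass. Gpr55, a lysophosphatidylinositol receptor, was at 2.43 ± 1.06 CPM in libraries labelled Cnr2 KO and 18.1 ± 0.597 CPM in WT (7.53-fold lower, edgeR adjusted p = 6.70e-11). Gpr18, an orphan receptor proposed to bind an anandamide relative, had 0.328 ± 0.392 CPM in libraries labelled Cnr2 KO and 5.02 ± 0.364 CPM in WT (15.5-fold lower, edgeR adjusted p = 5.47e-08). Fabp5, a carrier of fatty acids and anandamide inside cells, was the only 1 of 7 fatty acid binding proteins tested, and was 2.31-fold lower (edgeR adjusted p = 5.92e-14).

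**Figure D4:**
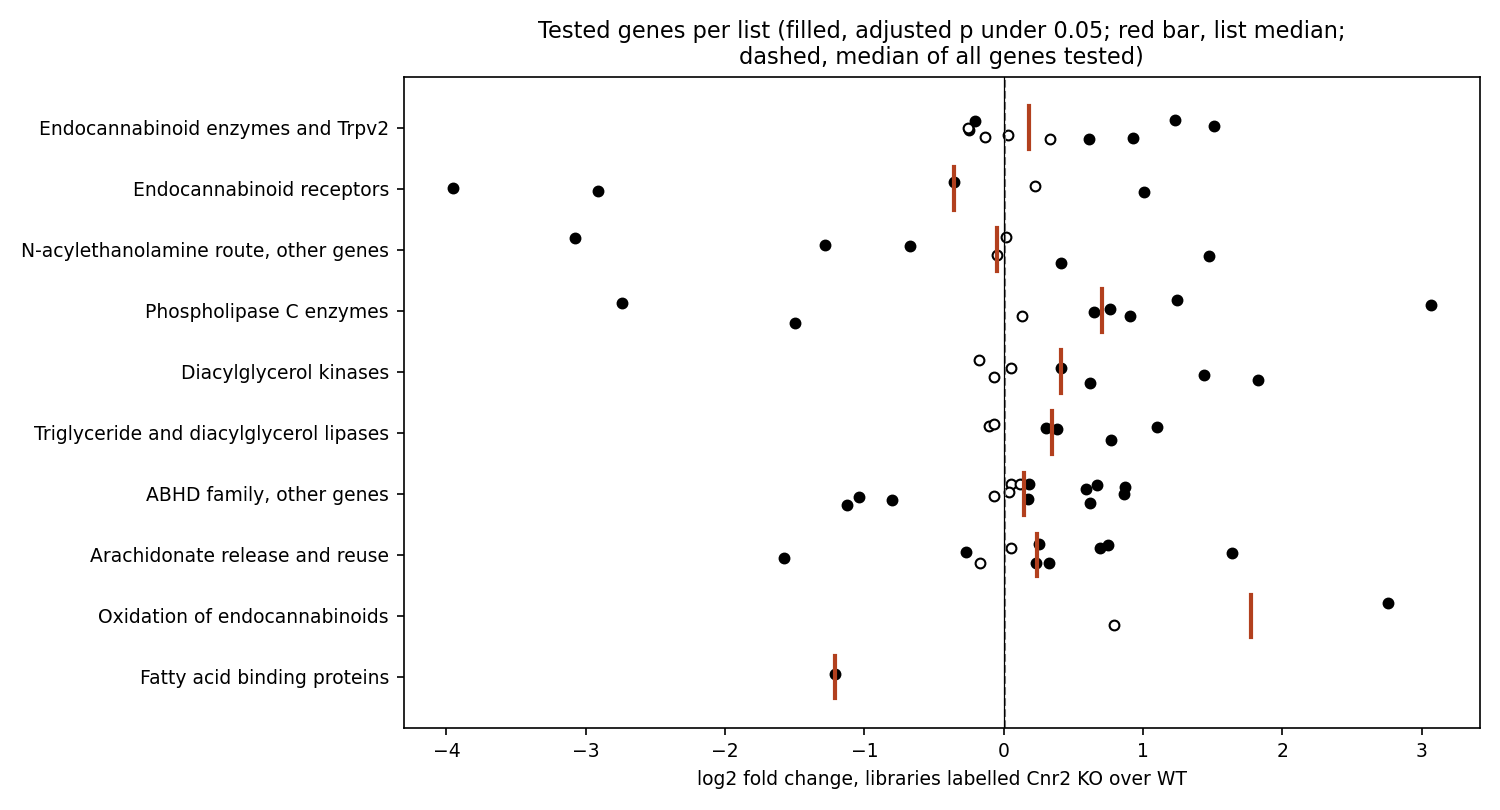
Log2 fold change of every tested gene per list, libraries labelled Cnr2 KO over WT. Each point is a gene, filled at adjusted p under 0.05 in edgeR and open otherwise, red bars are list medians and the dashed line is the median of all genes tested, 0.01. The endocannabinoid enzymes lie between -0.26 and 1.51, and the receptor list reaches -3.96.

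Markers of other cell types differed between the groups as well, and their part in the values above was not tested. Their sums were low next to the ILC2 sum, but not every marker was low next to each ILC2 marker. Pecam1 averaged 109.2 CPM in WT, above Il7r there (41.9 CPM). Epcam averaged 46.4 CPM in libraries labelled Cnr2 KO, near Il7r (55.1 CPM). Summed T cell markers (4 of 8 counted) were at 20.5 to 23.8 CPM in libraries labelled Cnr2 KO and 7.61 to 8.88 CPM in WT. Most of that sum was Cd3g, at 17.2 CPM with the Cnr2 KO label and 4.65 CPM in WT on average. Cd3e was also called higher, whereas Cd28 and Cd3d overlapped between the groups and Cd28 did not pass. The B cell marker Cd79b was at 25.1 to 26.3 CPM with the Cnr2 KO label and 16.1 to 17.2 CPM in WT. Dendritic cell markers (5 of 6) were at 20.4 to 25.6 CPM with the Cnr2 KO label and 10.9 to 13.5 CPM in WT, a sum made up mostly of Xcr1, while Batf3 was at 0 in all 3 libraries labelled Cnr2 KO and at 0.893 to 1.22 CPM in WT and Zbtb46 averaged 0.247 CPM with the Cnr2 KO label and 0.646 CPM in WT. Epithelial markers (3 of 5) were at 45.5 to 51.6 CPM with the Cnr2 KO label and 12.5 to 25.4 CPM in WT. Epcam was 4.24-fold higher, whereas Krt18 was 2.90-fold lower and Krt8 was at 0 in all 3 libraries labelled Cnr2 KO and at 8.61, 1.91 and 0 CPM in WT. Erythroid markers (2 of 4) were at 5.13 to 6.26 CPM with the Cnr2 KO label and 0.735 to 1.27 CPM in WT. Markers of mast cells, basophils and eosinophils (3 of 6) were at 3.70 to 4.33 CPM with the Cnr2 KO label and 1.58 to 3.43 CPM in WT, with Fcer1a and Cpa3 called higher and the basophil gene Mcpt8 called lower, at 0.468 CPM with the Cnr2 KO label and 1.57 CPM in WT on average. Macrophage markers (2 of 6) were at 0.360 to 1.55 CPM with the Cnr2 KO label and 0 to 0.0525 CPM in WT. Each of these sums was above the WT range in all 3 libraries labelled Cnr2 KO. Endothelial markers (2 of 4, mostly Pecam1) were lower, at 39.3 to 40.3 CPM with the Cnr2 KO label and 106.0 to 114.4 CPM in WT. The ILC3 cytokine genes Il17a, Il17f and Il22 were at 0 in all 3 libraries labelled Cnr2 KO, against 0.264 to 0.937 CPM for Il17a, 1.29 to 2.11 CPM for Il17f and 1.10 to 1.66 CPM for Il22 in WT. Groups overlapped in the remaining lists. The 1 of 5 NK cell markers counted was at 1.01 to 2.62 CPM with the Cnr2 KO label and 1.06 to 1.49 CPM in WT, neutrophil markers (2 of 4) were at 0.103 to 0.943 CPM with the Cnr2 KO label and 0.00774 to 0.210 CPM in WT and fibroblast markers (4 of 5) were at 1.33 to 5.93 CPM with the Cnr2 KO label and 0.999 to 4.99 CPM in WT. Cd4, Cd8a, Ncr1, Csf1r, Mrc1, Siglecf and Cdh5 have no row in the table, whose lowest row total is 10 counts. The mitochondrial share of counts was 0.320 to 0.523% in libraries labelled Cnr2 KO and 0.404 to 0.477% in WT, and the ribosomal protein share 1.404 to 1.604% with the Cnr2 KO label and 2.14 to 2.28% in WT.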

How the data were processed

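RNA was measured by low-input RNA-seq in 3 libraries labelled Cnr2 KO and 3 WT libraries. The authors deposited expected counts (estimated counts of reads per gene that need not be whole), not normalized, for each gene and library. Between 59.08 and 81.23% of a library's values were whole to within 0.02. The submitters' processing notes list Partek 10.0, STAR 2.7.8, DESeq2 and build mm10 without saying what each did. How reads were counted, and with which strand setting, is not given in the sources used here. Of 16588 genes, 16230 matched GENCODE M21 (GRCm38), which gave positions, lengths and GC content.

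Counts were rounded and tested with edgeR 4.0.16 (R 4.3.3; TMM, filterByExpr with minimum count 10 and minimum total 15, quasi-likelihood test, genotype only), which tested 12150 genes and left out 4438. P-values were adjusted over all tested genes (Benjamini-Hochberg, 0.05). Standard errors are the absolute log2 fold change divided by the square root of F, and 95% intervals use the test's degrees of freedom. The fit was also run on simulated data where far fewer genes changed, so that run does not show its error rates here. No library repeated another: within groups the chi-square per gene between libraries was 4.15 to 8.07, above sampling noise. The series title names adipose tissue and every label names lung. The members and gene lists were chosen with earlier results of these data known. Named genes were all members, Cnr2, the 2 called genes of smallest p per list, and the 3 genes nearest to each member changed at least 2-fold. Other genes named in a list were chosen after their values were seen. Alternatives were DESeq2 size factors, other filters, a replicate block, DESeq2 1.42.0, limma-voom (limma 3.58.1), thinning of WT replicate 2, leaving out each library, and a correction for gene GC content and length (mgcv 1.9.3). Some marker genes are not reported here.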

Additional observations from a re-analysis of the deposited data

How the results depend on the processing

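Under the 16 alternatives, Faah, Naaa, Trpv2, Abhd12 and Daglb kept their direction and their call, and Abhd4 and Abhd6 stayed uncalled. Napepld lost its call in 5 of them, and Mgll and Dagla gained one in 1 each, all given above; the cause was not tested. No direction reversed, although Dagla gave no value under the stricter filter. With an adjusted p under 0.01, 3 of the 10 genes were higher, against 4 at 0.05, and 1 was lower, against 2. Leaving out each library gave 3 to 4 genes higher and 2 to 3 lower among the 10, 3749 to 3869 higher and 3771 to 3957 lower among all genes, and 29 to 31 higher and 13 to 15 lower in the wider lists. Of 320 list counts under alternatives 299 stayed within 1.5 times their value and 21 moved.

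Whether replicate numbers pair the libraries was not settled. Deviations from the group means correlated at 0.066, 0.006 and 0.043 between same-numbered libraries and at -0.068 to 0.029 between the others. Not every library correlated best with its own number, but with 3 libraries per group such correlations cannot exclude pairing. With the replicate block edgeR called 4 of the 10 genes higher and 2 lower, with 4061 higher and 4113 lower among all genes, and DESeq2 with the block called 3 of the 10 higher and 2 lower. With the longest protein-coding transcript as length, Faah ranked 3 in WT, against 5. Depth limits Dagla most, with 3 to 15 counts in 5 of the 6 libraries.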
